A study of Mus musculus with 30 samples.

Results

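Aldosterone acts on the distal colon as it does on the collecting duct of the kidney. It binds the mineralocorticoid receptor, which then raises the activity of the epithelial sodium channel ENaC in the apical membrane, where sodium enters the cell down the gradient that the basolateral sodium pump maintains, and potassium is secreted or reclaimed by channels and by an apical potassium pump. The machinery is known to be concentrated in the last part of the colon, and the salt and water it recovers are part of what is lost when the colon is inflamed. The expression of 8 genes of this system was examined here, out of 46078 genes in the count table: the receptor Nr3c2, the enzyme Hsd11b2 that keeps glucocorticoids off the receptor, the kinase Sgk1, the ENaC subunits Scnn1a, Scnn1b and Scnn1g, the sodium pump regulator Fxyd4 and the colonic proton-potassium pump Atp12a. All 8 symbols were found on 1 row each, and all 8 passed the low count filter that left 16261 genes.

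The 30 libraries were made from the scraped epithelial layer of colons of wild-type C57BL/6J mice, with 5 mice in each of 6 groups and 1 library per mouse. Females and males received AOM (azoxymethane, a carcinogen) once at 10 mg/kg by intraperitoneal injection, then 3 cycles of 2.5% DSS (dextran sodium sulfate, an intestinal irritant) in drinking water, and were killed 9 or 15 weeks after AOM. The vehicle mice of both sexes carry the label of 9 weeks, and by the study's methods they received saline. No mouse carried a transgene or deletion, the labels give no age per mouse, and the mice were followed as a model of colitis-associated cancer with tissue away from tumors. Because no vehicle group was killed at 15 weeks, treatment and time cannot be told apart in the 15-week contrasts, and the 9- and 15-week contrasts of a sex share the same 5 vehicle libraries.

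The 8 genes were chosen as a known pathway and selected on measured values, namely how their CPM and TPM ran across vehicle, 9 weeks and 15 weeks and with Hoxb13, a homeobox gene that marks the distal colon. For that reason their levels, their differences between AOM/DSS and vehicle and their relation to Hoxb13 are given below as a description. Where one of the 8 is named as called in a contrast with vehicle, this states only on which side of the thresholds the fit put its value, and no test is read from it. Differences between the sexes and the difference between the male and the female response were not named in that choice and were tested. Other genes of the pathway, which are not among the 8, were tested too, in lists drawn up with earlier results of these data known.

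Total counts per library ran from 9265804 to 30806392. The 8 markers of colon epithelium summed to between 11670 and 43960 CPM (counts scaled to a common library size) in the 30 libraries, so the scrapes were epithelial in content. One library stood apart: vehicle male 1 held 5931 CPM of the 7 smooth muscle markers summed, against 37.6 to 131 in the other vehicle males and 2.41 to 226 in the other 29 libraries. The scrapes also differed in the levels of markers of distal and proximal colon. The 4 distal markers in the table summed to between 20.4 and 736 CPM, and the 4 proximal markers to between 724 and 7528 CPM. In bulk tissue, fewer cells that express a gene and less RNA per cell cannot be told apart.

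The regulatory sequence that defines this system in DNA is the response element shared by the mineralocorticoid and glucocorticoid receptors, whose half-site is TGTTCT. RefSeq promoters on GRCm38.p6, each running from 250 bases before to 50 bases after a transcript start, were on hand for 5 of the 8 genes: Nr3c2, Sgk1, Scnn1b, Scnn1g and Fxyd4. Hsd11b2, Scnn1a and Atp12a were not matched. The half-site, searched on both strands, was present in 6233 of 32851 promoter windows, or 19%. The whole palindrome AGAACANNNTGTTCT, which contains a half-site on each strand, was present in 3 of them, or 0.00913%. One of these was an Sgk1 promoter. The window of 30 bases at chr10:21993694-21993723 on the plus strand is shown because it is the textbook element in full, with the palindrome in capitals, 189 to 175 bases before that transcript start.
Sgk1: tgcggaaAGAACAGAATGTTCTcggagatt
Of the 6 Sgk1 promoter windows, 3 held a half-site. The windows of Nr3c2, Scnn1b, Scnn1g and Fxyd4 held none, which says only that these letters are not in those windows.

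The genes were expressed at very different levels. Compared per transcript length, in TPM (transcript abundance as a share of each library's transcripts, the authors' StringTie values), the median over the 30 libraries was highest for Hsd11b2 at 58.6 TPM. Atp12a followed with a median level of 37.5 TPM, Scnn1a with 28.7 TPM and Sgk1 with 28.2 TPM, then Nr3c2 with 15.0 TPM. Scnn1b stood at a median level of 2.13 TPM, Fxyd4 at 0.994 TPM and Scnn1g at 0.239 TPM. Hsd11b2 was above Atp12a in 23 of 30 libraries, Atp12a above Scnn1a in 18 and Scnn1a above Sgk1 in 15, so that the 4 most abundant genes overlapped across libraries. Sgk1 was above Nr3c2 in 26 libraries, and Nr3c2 was above Scnn1b in all 30. Scnn1b was above Fxyd4 in 17 libraries and Fxyd4 above Scnn1g in 22. The alpha subunit of ENaC was thus the abundant one, and the beta and gamma subunits, both of which are needed for a fully active channel, were scarce in these scrapes.

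**Figure D1:**
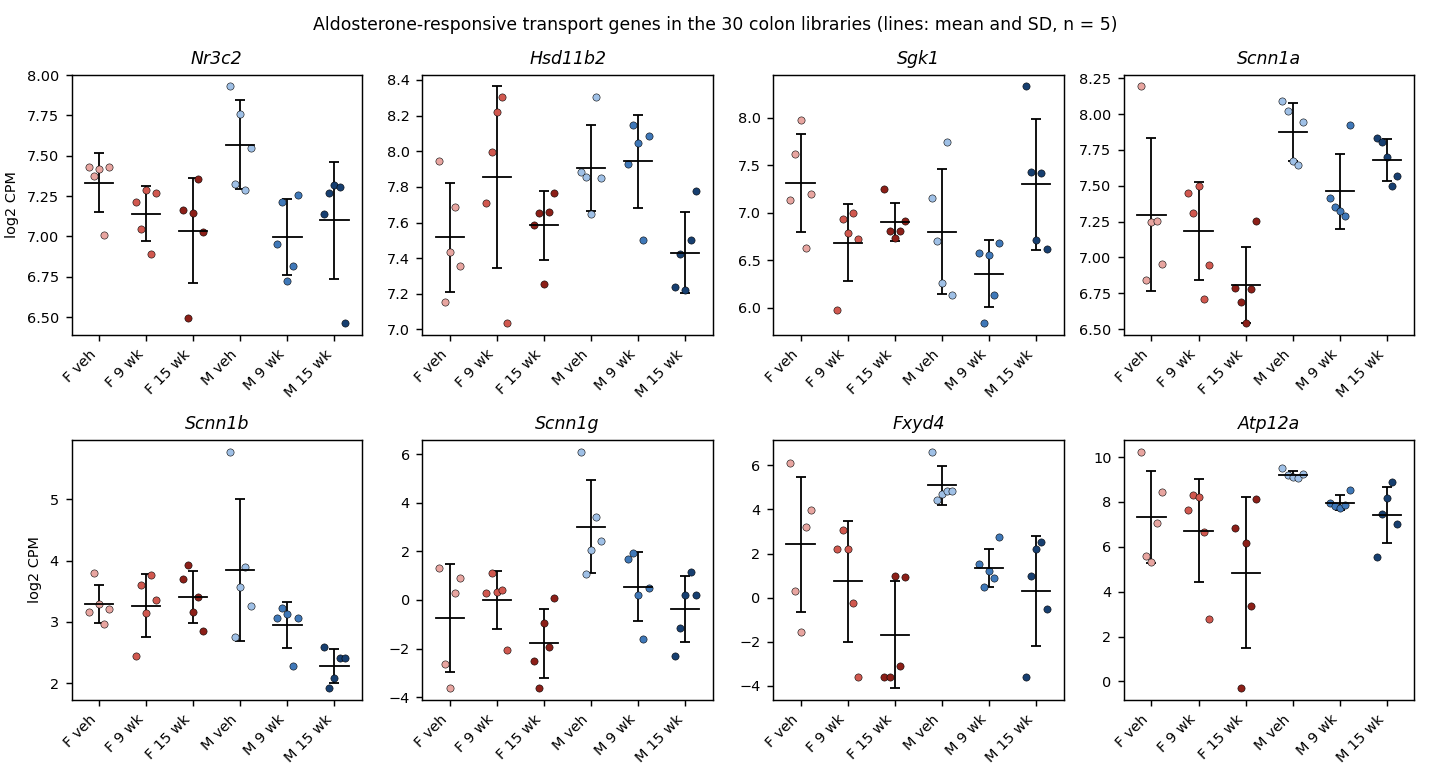
Log2 CPM (trimmed mean scaled, with a prior count of 2) of the 8 genes in each of the 30 libraries, for females (F, red) and males (M, blue) given vehicle (veh) or killed 9 or 15 weeks (wk) after AOM. Points are mice, horizontal lines the mean and bars the SD over 5 mice; the scale of the vertical axis differs between genes, and Scnn1g, Fxyd4 and Atp12a span the widest ranges.

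Between libraries the genes were compared in CPM scaled by trimmed mean factors. A gene is named as called when the edgeR quasi-likelihood fit over all 30 libraries gave a Benjamini-Hochberg adjusted p under 0.05 over all 16261 genes, a log2 fold change beyond 0.4 in either direction and a mean FPKM of at least 1 in one of the compared groups. The gene for the receptor itself varied little. Nr3c2 had CPM between 128.7 and 172.4 in the 5 vehicle females, with a median of 170.9, and of 243.8, 159.9, 216.5, 155.9 and 187.0 in vehicle males. In males at 9 weeks its CPM were 124.0, 148.6, 105.6, 112.8 and 152.5, below every vehicle male. In males at 15 weeks they were 140.7, 154.1, 159.5, 158.3 and 88.3, which overlapped the vehicle males. The log2 fold change of Nr3c2 in males was -0.58 ± 0.16 (SE) at 9 weeks, a called difference, and -0.46 ± 0.16 at 15 weeks, which was not called. In females the log2 differences were -0.19 ± 0.16 and -0.28 ± 0.16. Across all 30 libraries the highest Nr3c2 level was 2.76 times the lowest.

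Hsd11b2, on chromosome 8 like Nr3c2, oxidises corticosterone and so leaves the receptor to aldosterone. Its CPM lay between 142.4 and 245.9 in vehicle females, with a mean of 186 ± 40.5 (SD, n = 5), and between 200 and 316 in vehicle males, with a mean of 243 ± 43.4. At 9 weeks the means were 242 ± 74.3 CPM in females and 249 ± 40.6 CPM in males, and at 15 weeks 193 ± 24.3 and 174 ± 28.7 CPM. The log2 fold change against vehicle was within 0.5 of 0 in all 4 contrasts, from -0.48 ± 0.18 in males at 15 weeks to 0.38 ± 0.18 in females at 9 weeks, and none was called. Without female 5 of the 9-week group, whose Hsd11b2 level of 131 CPM was the lowest of the 30, the log2 difference of the females at 9 weeks was 0.52 and was called.

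Sgk1, the kinase that aldosterone induces within minutes to hours and that keeps ENaC in the membrane, ran widely between mice of the same group. Its CPM in vehicle females were 140.2, 196.6, 252.7, 98.8 and 146.2, and in vehicle males 142.8, 104.3, 76.7, 214.3 and 70.2. The 9-week levels were 63.0 to 128 CPM in females and 57.2 to 103 CPM in males, inside or just below the range of their vehicle groups. At 15 weeks the males had 322.1, 172.0, 104.7, 171.5 and 98.3 CPM and the females 106.3 to 152.3 CPM. No contrast of Sgk1 with vehicle was called, and the log2 differences ran from -0.66 ± 0.30 in females at 9 weeks to 0.51 ± 0.30 in males at 15 weeks.

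Scnn1a, the alpha subunit, which can form a weak channel alone, had CPM of 292.7, 114.6, 152.1, 152.6 and 124.0 in vehicle females and of 272.1, 260.3, 204.2, 200.3 and 246.9 in vehicle males. The single high vehicle female, number 1, was also the vehicle female with the most Hoxb13. AOM/DSS-treated females had 174.8, 158.9, 180.7, 104.4 and 123.0 CPM at 9 weeks and 110.3, 103.3, 93.2, 109.6 and 152.2 CPM at 15 weeks. The treated males had 170.9, 162.9, 160.3, 156.6 and 242.3 CPM at 9 weeks and 227.6, 223.7, 207.6, 180.4 and 189.8 CPM at 15 weeks. In each of these 4 contrasts the treated group overlapped its vehicle group and Scnn1a was not called, with log2 differences from -0.56 ± 0.20 in females at 15 weeks to -0.17 ± 0.20 in females at 9 weeks.

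Scnn1g and Scnn1b lie next to each other on the plus strand of chromosome 7 on GRCm38, Scnn1g at chr7:121734479-121768475 and Scnn1b at chr7:121865111-121918515, with 96.6 kb and no protein-coding gene between them. Scnn1b, the beta subunit, had CPM of 8.91, 13.9, 9.77, 7.73 and 9.17 in vehicle females and of 54.7, 6.64, 11.8, 14.9 and 9.52 in vehicle males. The value of 54.7 belonged to vehicle male 1, the library with smooth muscle. Treated males had 8.26, 9.30, 8.65, 4.79 and 8.26 CPM at 9 weeks and 5.93, 3.71, 4.15, 5.24 and 5.27 CPM at 15 weeks, so that the 15-week males were below every vehicle male. Treated females had 5.37 to 13.5 CPM at 9 weeks and 7.17 to 15.2 CPM at 15 weeks, overlapping their vehicle group. The log2 fold change of Scnn1b was -1.32 ± 0.38 in males at 9 weeks and -2.01 ± 0.39 in males at 15 weeks, both called. In females it was 0.01 ± 0.38 and 0.14 ± 0.38.

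Scnn1g, the gamma subunit, was close to the limit of detection in many libraries. Its CPM were 2.43, 0.0811, 0, 1.15 and 1.81 in vehicle females, from 69, 2, 0, 26 and 17 counts, and 68.4, 2.01, 4.12, 10.5 and 5.30 in vehicle males, from between 47 and 2102 counts. The 0 of vehicle female 3 allows a level of up to 0.111 CPM, taking 3 counts as the limit per library. Again vehicle male 1 was the highest of all 30 libraries, at 68.4 CPM, and the next highest was vehicle male 4 at 10.5 CPM. The treated males had 3.12, 3.76, 1.08, 0.246 and 1.32 CPM at 9 weeks and 0.119, 0.367, 1.09, 2.14 and 1.06 CPM at 15 weeks. The treated females stayed between 0.161 and 2.07 CPM at 9 weeks and between 0 and 0.987 CPM at 15 weeks, with 0 counts in female 2, which allows up to 0.158 CPM. In males the log2 fold change of Scnn1g was -3.25 ± 0.98 at 9 weeks and -4.26 ± 1.05 at 15 weeks, and in females it was 0.12 ± 0.98 and -1.58 ± 1.06. Both male values were called, but the gene reached the FPKM minimum through the vehicle males alone, with a group mean of 4.77 FPKM against 0.487 and 0.195 in treated males and a value of 18.3 FPKM in vehicle male 1, so that a call could only be lower.

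Fxyd4, also named CHIF, is a small membrane protein that raises the sodium affinity of the sodium pump and is induced by aldosterone in the distal colon. Its CPM were 69.8, 1.14, 0.259, 9.28 and 15.7 in vehicle females and 98.6, 21.3, 26.1, 29.0 and 28.3 in vehicle males. In treated males they were 2.76, 1.31, 2.22, 1.75 and 6.56 at 9 weeks and 0, 1.88, 4.59, 5.58 and 0.616 at 15 weeks, below every vehicle male at both times. In treated females they were 4.57, 8.44, 4.60, 0.766 and 0 at 9 weeks and 0, 0, 1.89, 0.0357 and 1.86 at 15 weeks, which overlapped the low vehicle females. The 4 libraries with 0 counts, female 5 at 9 weeks, females 1 and 2 at 15 weeks and male 1 at 15 weeks, each allow up to 0.144 to 0.178 CPM. The log2 fold change in males was -3.79 ± 1.14 at 9 weeks and -4.02 ± 1.16 at 15 weeks, both called. In females it was -2.38 ± 1.08 at 9 weeks and -4.62 ± 1.23 at 15 weeks. Neither was called by edgeR, while DESeq2 called the 15-week value at -4.67. Without vehicle female 1, at 69.8 CPM, the edgeR values were -0.78 and -3.02. In females at 15 weeks Fxyd4 reached the FPKM minimum through vehicle alone, with group means of 8.54 FPKM against 0.38, so that a call could only be lower.

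Atp12a, the catalytic subunit of the colonic proton-potassium pump that reclaims potassium from the lumen, had the highest mean TPM of the 8 genes in vehicle males, at 93.5 TPM beside 78.4 TPM for Hsd11b2. Its CPM in those 5 males were 720.6, 586.0, 552.6, 535.8 and 600.9. Treated males had 246, 229, 210, 231 and 368 CPM at 9 weeks and 47.0, 177.5, 286.3, 477.0 and 131.0 CPM at 15 weeks, all below the lowest vehicle male. The vehicle females were spread over 30.1 times, from 40.2 to 1213 CPM (the 5 values were 1213, 48.5, 40.2, 134.3 and 344.9). Treated females had 199.1, 314.6, 296.9, 101.2 and 6.83 CPM at 9 weeks and 113.8, 0.735, 71.3, 10.3 and 284.9 CPM at 15 weeks. The log2 fold change was -1.22 ± 0.92 and -1.42 ± 0.93 in males and -0.95 ± 0.92 and -1.89 ± 0.94 in females at 9 and 15 weeks, and no contrast was called in the fit over all 30 libraries, which has 1 estimate of the spread of Atp12a for males and females together. When the males at 9 weeks were fitted with the vehicle males alone, the log2 difference was -1.20 ± 0.15 and was called. Without vehicle female 1, the log2 difference of the females at 9 weeks turned to 0.38.

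**Figure D2:**
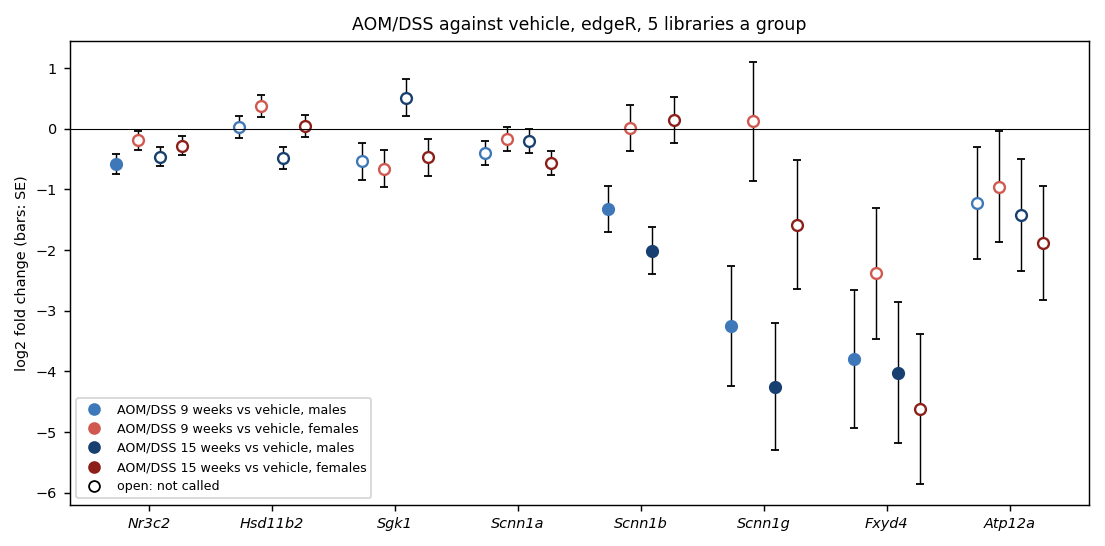
Log2 fold change of the 8 genes in AOM/DSS against vehicle, in males (blue) and females (red) at 9 and 15 weeks, with bars of 1 SE from the edgeR fit over 30 libraries. Filled points are called and open points are not; the filled points are Nr3c2 in males at 9 weeks and Scnn1b, Scnn1g and Fxyd4 in males at both times.

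In males at 9 weeks, 4 of the 8 genes were called lower and none higher, where 7.31% of all tested genes were called and 2.88% were called lower. In males at 15 weeks, 3 of 8 were called lower, where 8.92% of all tested genes were called and 4.55% were called lower. In females 0 of 8 were called at 9 weeks, where 2.9% of genes were called, and 0 of 8 at 15 weeks, where 0.0984% were called. At an unadjusted p under 0.05 in edgeR the counts were 5 and 5 of 8 in males, where 25.4% and 31.4% of tested genes were under it, and 3 and 2 of 8 in females, where 17.2% and 10.9% were. DESeq2 called 4 and 4 of 8 in males and 0 and 1 in females. Of the 28034 genes it was given, it called 1436 and 1732 in males and 670 and 95 in females. The choice of the genes used these contrasts, so nothing is read from the counts. The median log2 difference of the 8 was -0.90 and -0.95 in males and -0.18 and -0.51 in females at 9 and 15 weeks, beside medians between -0.04 and 0.00 over all tested genes. Groups that did not overlap were found for Nr3c2, Fxyd4 and Atp12a in males at 9 weeks, where 10.3% of tested genes did not overlap in either direction, and for Scnn1b, Fxyd4 and Atp12a in males at 15 weeks, where 7.09% did not. None of the 8 separated the treated females from vehicle, where 4.18% of tested genes did not overlap at 9 weeks and 2.21% at 15 weeks. Between 15 and 9 weeks 0 of 8 genes were called by edgeR or DESeq2 in either sex. Of all tested genes edgeR called 0% in that contrast, while DESeq2 called 23 genes higher and 77 lower at 15 weeks in males and 2 higher and 37 lower in females. In edgeR 2 of 8 in males and 0 of 8 in females had an unadjusted p under 0.05, where 13.4% and 12.6% of tested genes did.

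The male differences of Scnn1b and Scnn1g rested to a large part on vehicle male 1. The log2 difference of Scnn1b changed from -1.32 to -0.45 at 9 weeks and from -2.01 to -1.15 at 15 weeks. That of Scnn1g changed from -3.25 to -1.53 and from -4.26 to -2.53. Fxyd4 moved less, from -3.79 to -3.16 and from -4.02 to -3.39, Nr3c2 at 9 weeks from -0.58 to -0.48, and Atp12a hardly moved, from -1.22 to -1.15 and from -1.42 to -1.35. Without vehicle male 1, 0 of the 8 were called in males at 9 weeks and only Scnn1b at 15 weeks. The 9-week calls did not depend on that library alone: 0 of 8 were also called without male 3 or without male 4 of the 9-week group and 1 without male 1, and over the 10 fits that left out 1 mouse Nr3c2 and Scnn1b were called in 6 and Scnn1g and Fxyd4 in 5. At 15 weeks Scnn1b was called in 10 of 10 such fits, Scnn1g in 9 and Fxyd4 in 7. With the smooth muscle marker score as a covariate, none of the 8 was called in males at either time, and the log2 differences at 9 weeks were -0.61 for Scnn1b, -1.57 for Scnn1g, -2.93 for Fxyd4 and -0.97 for Atp12a. Of all 16261 tested genes that fit called 971 at 9 weeks and 361 at 15 weeks, beside 1188 and 1451 without the score. The other 4 vehicle males, with 21.3 to 29.0 CPM of Fxyd4 and 536 to 601 CPM of Atp12a, were still above all treated males. The part of smooth muscle in these levels was not tested beyond these fits. When the treated males were fitted with the vehicle males alone, 3 of 8 were called at 9 weeks (Nr3c2, Fxyd4 and Atp12a) and 1 at 15 weeks (Fxyd4). Over all genes these fits called 1169 of 15369 at 9 weeks and 181 of 14964 at 15 weeks.

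**Figure D3:**
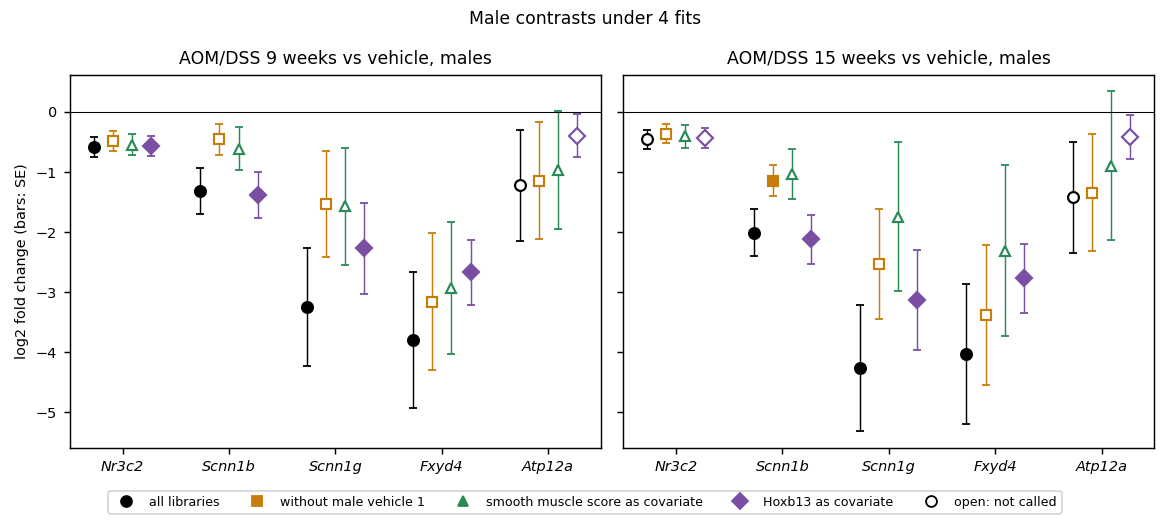
Log2 fold change in males at 9 weeks (left) and 15 weeks (right) of 5 of the 8 genes under 4 edgeR fits: all libraries, without vehicle male 1, with the smooth muscle score as a covariate and with log2 Hoxb13 as a covariate. Bars are 1 SE and filled points are called. Scnn1b and Scnn1g move toward 0 without vehicle male 1, and Atp12a, Fxyd4 and Scnn1g move toward 0 with Hoxb13.

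Hoxb13 itself differed between the scrapes. Its CPM ran from 33.6 to 416 in vehicle females, 201 to 400 in vehicle males, 8.12 to 174 and 137 to 276 in females and males at 9 weeks, and 7.25 to 146.5 and 39.5 to 239 at 15 weeks. Against vehicle the log2 difference of Hoxb13 was -0.71 ± 0.70 and -0.92 ± 0.70 in males and -0.41 ± 0.70 and -1.59 ± 0.72 in females, and it was not called in any of these 4 contrasts. After the mean of each group was subtracted from log2 CPM, Pearson's r with Hoxb13 over the 30 libraries was 0.92 for Atp12a, 0.88 for Fxyd4 and 0.70 for Scnn1g. It was 0.57 for Scnn1a and 0.50 for Hsd11b2, and 0.12 for Nr3c2, -0.22 for Scnn1b and -0.26 for Sgk1. These values describe 30 libraries that share group means and library scaling, and no p is attached. Within the 10 libraries of a treatment, r for Atp12a was 0.94 in vehicle, 0.99 at 9 weeks and 0.91 at 15 weeks, and for Fxyd4 0.92, 0.97 and 0.80. Leaving out the 2 libraries farthest from the median of Hoxb13, female 2 at 15 weeks and female 5 at 9 weeks, gave 0.95 for Atp12a, 0.86 for Fxyd4 and 0.64 for Scnn1g. Per doubling of Hoxb13, Fxyd4 was higher by 1.53 and Atp12a by 1.38 on the log2 scale.

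In log2 CPM the neighbouring subunit genes thus parted in this respect: Scnn1g followed Hoxb13 at r = 0.70 while Scnn1b did not, at -0.22. Without vehicle male 1, the highest library for both genes, r was 0.735 for Scnn1g and -0.425 for Scnn1b. The correlation of the 2 genes with each other over all 30 libraries, after group means were subtracted, was 0.28. The values depended on the scale. In log2 TPM, where some libraries are low for all 8 genes, r was 0.59 for Nr3c2, 0.79 for Scnn1a, 0.30 for Scnn1b, 0.34 for Scnn1g and 0.97 for Atp12a. Scnn1b and Scnn1g were thus alike on that scale. With the mean log2 CPM of the 4 distal markers in place of Hoxb13, r was 0.71 for Atp12a, 0.82 for Scnn1g and 0.024 for Scnn1b. Hoxb13 is itself among these markers. Hoxd12, with no counts in any library of 15 weeks, weighs as much in that mean as Hoxb13.

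**Figure D4:**
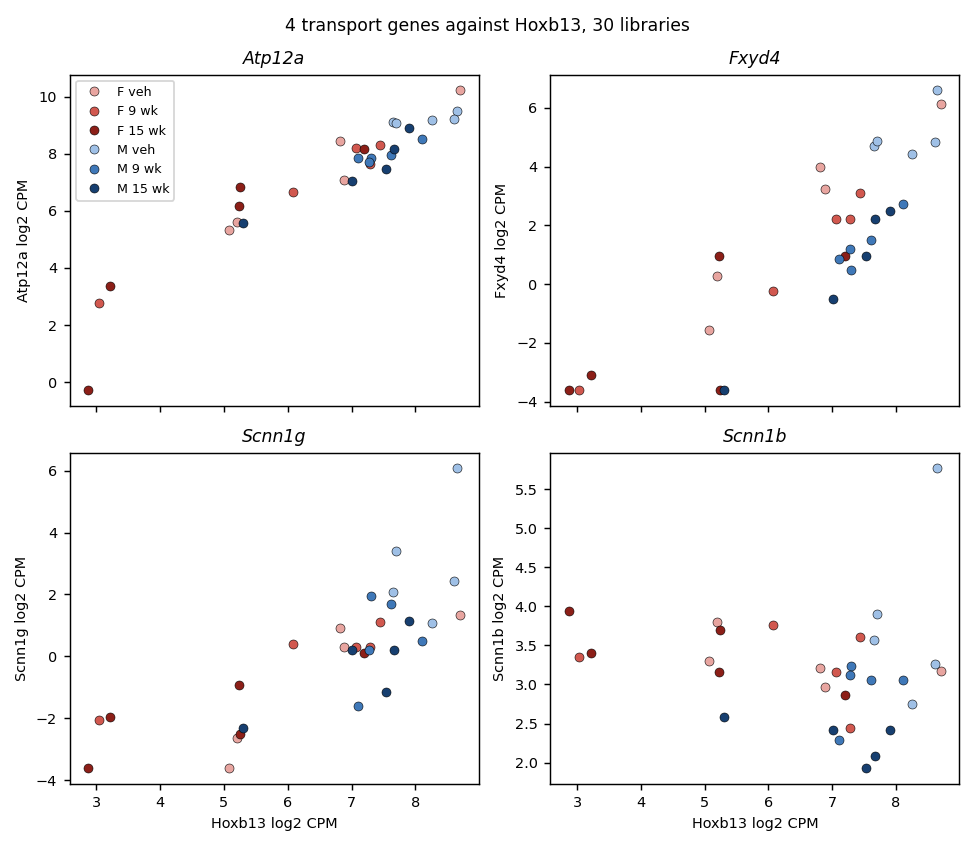
Log2 CPM of Atp12a, Fxyd4, Scnn1g and Scnn1b (vertical axes) against log2 CPM of Hoxb13 (horizontal axes) in the 30 libraries, coloured by group. Atp12a lies along 1 band for all groups, Fxyd4 and Scnn1g rise with Hoxb13, and Scnn1b shows no upward trend.

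With log2 Hoxb13 as a covariate in the fit, the differences between AOM/DSS and vehicle changed gene by gene. Atp12a went to -0.40 ± 0.36 and -0.41 ± 0.37 in males and to -0.21 ± 0.36 and 0.23 ± 0.38 in females at 9 and 15 weeks. Fxyd4 in males went from -3.79 to -2.67 ± 0.54 at 9 weeks and from -4.02 to -2.77 ± 0.57 at 15 weeks. In females Fxyd4 went from -2.38 to -1.52 ± 0.56 and from -4.62 to -1.08 ± 0.76. Scnn1g in males went from -3.25 to -2.27 ± 0.76 and from -4.26 to -3.14 ± 0.83. Scnn1b in males was at -1.39 ± 0.39 and -2.12 ± 0.41, beside -1.32 and -2.01 without the covariate. The part of distal content in these differences was not tested beyond this fit.

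By the same correlation with group means subtracted, the tested genes most like each member were as follows. Atp12a was closest to the transglutaminase gene Tgm3 (r = 0.94) and then to Hoxb13 itself. Fxyd4 was closest to 5033404E19Rik and Itih2, both at 0.94, and Hoxb13 came at rank 27 of the tested genes. Scnn1g was closest to Chst15 (0.88) and Gm9917 (0.86). Scnn1b was closest to Rbpms2, an RNA-binding protein gene of smooth muscle (0.78), and to Arg1, an arginase gene (0.77). Vehicle male 1, the library with smooth muscle, had the most Scnn1b, and this likeness was not computed without it. Scnn1a was closest to the creatine transporter gene Slc6a8 (0.85) and to Osbpl2 (0.80), Nr3c2 to Ndfip2, an adaptor of Nedd4-family ubiquitin ligases (0.92), and to the desmosomal cadherin gene Dsg2 (0.90). Hsd11b2 was closest to the goblet cell gene Zg16 (0.80) and to Spink1 (0.76), and Sgk1 to Unc119b and to the growth factor gene Hbegf, both at 0.67. These are descriptions over 30 libraries of bulk tissue.

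The sexes were compared in vehicle mice and at each time after AOM. No member was called in edgeR in any of the 3 contrasts. In vehicle mice 0 of 8 were called, where 0.178% of tested genes were called, and 4 of 8 had an unadjusted p under 0.05, where 18.7% of tested genes did. These were Scnn1g, with a male minus female log2 difference of 4.08 ± 1.04 (adjusted p = 0.0675), Scnn1b with 0.98 ± 0.38 (adjusted p = 0.157), Scnn1a with 0.50 ± 0.20 (adjusted p = 0.168) and Hsd11b2 with 0.38 ± 0.18 (adjusted p = 0.26). All 4 were higher in males. Without vehicle male 1 the differences were 2.35 for Scnn1g (adjusted p = 0.433), 0.12 for Scnn1b (adjusted p = 0.919) and 0.45 for Scnn1a (adjusted p = 0.483). The contrast also holds vehicle female 1, without which Scnn1a (0.80) and Scnn1g (4.74) were called. Leaving out vehicle male 2, 3 or 4 also brought Scnn1g to a call, at 4.37, 4.33 and 4.22. DESeq2 called Scnn1g at 4.05, and it called 473 of 28034 genes in this contrast. Here too Scnn1g reached the FPKM minimum through the vehicle males alone. Markers of other cells moved with this contrast. All 7 smooth muscle markers were called higher in the vehicle males, each by 50.9 times or more, and their sum was 37.6 to 131 CPM in the vehicle males other than number 1 against 3.81 to 51.1 CPM in vehicle females. The connective tissue markers summed to 89.1 to 1055 CPM in vehicle males and 21.8 to 172 CPM in vehicle females, with Col1a1 5.74 times and Col3a1 6.87 times higher in males, neither called. Their part in the sex differences was not tested beyond the fit with the smooth muscle score. Hoxb13 was 2.10 times higher in the males of this contrast by the same fit, at 1.07 ± 0.71 on the log2 scale (adjusted p = 0.437).

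At 9 weeks 0 of 8 genes were called between the sexes, where 0.0492% of genes were called, and 0 of 8 had an unadjusted p under 0.05. DESeq2 called none. At 15 weeks 0 of 8 were called by edgeR, where 0.184% were, and 2 of 8 had an unadjusted p under 0.05. Scnn1a was higher in males by 0.86 ± 0.20 on the log2 scale (adjusted p = 0.0593), and the 5 males, from 180 to 228 CPM, were all above the 5 females, from 93.2 to 152 CPM. It was called with DESeq2, in the fit of the compared libraries alone, with the smooth muscle score as a covariate and without female 5. The adjusted p in these fits was between 0.00814 and 0.0454. Between the sexes at 15 weeks DESeq2 called 205 of 28034 genes. Scnn1b was lower in males at 15 weeks, at -1.17 ± 0.39 (adjusted p = 0.169), and here too the groups did not overlap, with 3.71 to 5.93 CPM in males and 7.17 to 15.2 CPM in females. Of all tested genes 2.43% did not overlap between the sexes at 15 weeks. Hoxb13 was 3.34 times higher in these males, at 1.74 ± 0.72 on the log2 scale (adjusted p = 0.309), and over the 10 libraries of 15 weeks r with Hoxb13 was 0.35 for Scnn1a and -0.73 for Scnn1b. With Hoxb13 as a covariate the sex differences at 15 weeks were 0.54 ± 0.18 for Scnn1a (adjusted p = 0.33) and -0.97 ± 0.45 for Scnn1b (adjusted p = 0.464). The part of distal content in them was not tested beyond this fit.

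The male and the female response to AOM/DSS were compared through the interaction of sex and treatment. No member was called at 9 or 15 weeks with edgeR or DESeq2. Of all tested genes edgeR called 0% at both times, and DESeq2 called 0 at 9 weeks and 1 at 15 weeks. At each time 2 of 8 had an unadjusted p under 0.05, where 7.41% and 7.66% of tested genes did. At 9 weeks these were Scnn1b, with a male minus female difference of log2 responses of -1.33 ± 0.53 (adjusted p = 0.641), and Scnn1g, with -3.38 ± 1.37 (adjusted p = 0.641). At 15 weeks they were Scnn1b, with -2.15 ± 0.54 (adjusted p = 0.419), and Sgk1, with 0.98 ± 0.43 (adjusted p = 0.576). For none of the 8 genes did the difference between the male and the female response pass the test, so a call in males beside none in females is not shown to be a sex difference.

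Since Scnn1a and Scnn1b differed in opposite directions between the sexes at 15 weeks, their ratio was taken within each library. The pair was chosen after the values had been seen, so the ratio is a description with no test. The Scnn1a level in TPM was 16.4 ± 10.1 times that of Scnn1b over all 30 libraries. In vehicle mice the ratio was 12.6 ± 6.46 in females and 14.6 ± 9.27 in males (SD, n = 5 each), and at 9 weeks 12.4 ± 7.16 and 17.3 ± 4.86. At 15 weeks the 5 females had ratios of 6.39, 4.88, 7.62, 7.60 and 15.6, and the 5 males 27.8, 43.0, 39.6, 28.0 and 25.5, so the groups did not overlap. This separation came with the choice of the pair. In CPM these males were above every female for Scnn1a and below every female for Scnn1b. A ratio of these genes in CPM could therefore not overlap, and nothing further is read from it. The mean log2 ratio was higher in males by 2.05 at 15 weeks, or 4.13 times, by 0.61 at 9 weeks and by 0.061 in vehicle mice. Leaving out vehicle male 2 turned the last of these to -0.24. From log2 CPM in place of TPM the 15-week difference was 1.997, and leaving out each of the 10 mice in turn gave 1.88 to 2.30. The Hoxb13 difference between these males and females stands beside this ratio as well.

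**Figure D5:**
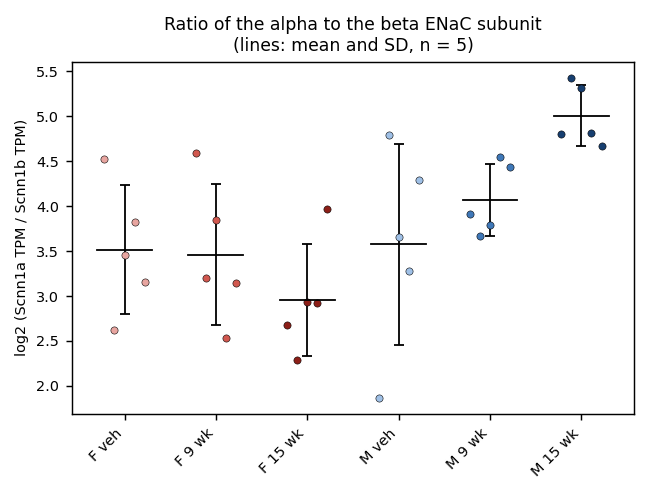
Log2 of the ratio of Scnn1a to Scnn1b TPM in each library, by sex (F, M) and group, with the mean and SD over 5 mice as lines. At 15 weeks the males, with ratios of 25.5 to 43.0, lie above the females, with 4.88 to 15.6, a separation that came with the choice of the pair. At the other times the sexes overlap.

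The surrounding pathway was followed with 55 further genes in 6 lists, of which 51 passed the low count filter (Kcnj1, Kcnmb2, Kcnmb4 and Fxyd2 did not). These genes were tested. In males at 9 weeks 3 rose and 2 fell, where 4.42% of all tested genes were called higher and 2.88% lower. In males at 15 weeks 3 rose and 3 fell, where 4.37% and 4.55% were called. In females at 9 weeks 1 rose and 1 fell, where 2.42% and 0.48% were called. In females at 15 weeks 0 of 51 were called by edgeR or DESeq2 and 2 had an unadjusted p under 0.05, where 10.9% of tested genes did. The median log2 change of the 51 genes was between -0.16 and -0.10 in the 4 contrasts.

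Among the 7 potassium channel genes tested, the 2 that rose in males were members of the two-pore-domain family. Kcnk6 (TWIK-2) was at 42.2 ± 14.4 CPM in vehicle males and at 78.6 ± 10.6 and 66.9 ± 15.2 CPM in males at 9 and 15 weeks, a rise of 0.90 ± 0.20 on the log2 scale at 9 weeks (edgeR adjusted p = 0.00428) and 0.66 ± 0.20 at 15 weeks (adjusted p = 0.0242). Kcnk1 (TWIK-1) rose from 70.2 ± 19.2 to 110 ± 8.38 and 116 ± 27.2 CPM, by 0.64 ± 0.16 (adjusted p = 0.0115) and 0.73 ± 0.16 (adjusted p = 0.0053). The vehicle females already had 107 ± 17.4 CPM of Kcnk1 and 69.2 ± 16.5 CPM of Kcnk6, near the treated males. Another two-pore-domain gene of the list, Kcnk5, named after its values were seen, had lower means in treated males, 94.9 ± 17.5 and 99.3 ± 19.2 CPM against 132.6 ± 39.8 CPM in vehicle males, with log2 differences of -0.48 ± 0.21 (adjusted p = 0.139) and -0.42 ± 0.21 (adjusted p = 0.168) that were not called. Kcnq1, the pore subunit of the basolateral potassium channel that drives chloride secretion, fell in females at 9 weeks from 105 ± 13.7 to 70.7 ± 19.4 CPM, by 0.57 ± 0.15 on the log2 scale (adjusted p = 0.0296). This call was lost when the females at 9 weeks and vehicle females were fitted alone (adjusted p = 0.122) and in 8 of the 10 fits that left out 1 mouse.

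Of the 8 genes for ENaC-cleaving proteases and their inhibitors, St14 (matriptase), which acts upstream of the channel-activating protease prostasin, rose in males from 334 ± 60.2 CPM to 463 ± 23.8 CPM at 9 weeks (0.47 ± 0.13 on the log2 scale, adjusted p = 0.0233) and 481 ± 83.1 CPM at 15 weeks (0.53 ± 0.13, adjusted p = 0.0108). Of the 12 regulators that aldosterone is known to induce or that act on ENaC traffic, Ndrg2 alone was called in the 4 contrasts with vehicle, lower in males at 9 weeks by -0.77 ± 0.22 on the log2 scale (adjusted p = 0.0268). Its mean level was 233.0 ± 100.6 CPM in vehicle males and 136 ± 18.3 CPM in males at 9 weeks. Without vehicle male 1 the difference was -0.47 with an adjusted p of 0.157. The call was also lost with the smooth muscle score (adjusted p = 0.178) and with the compared libraries alone (0.0591). It was lost as well without male 2, 3 or 4 of the 9-week group.

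In the sodium pump list, the catalytic and beta subunit genes did not pass the test in any contrast with vehicle. Fxyd5 (dysadherin), a pump regulator tied to cell adhesion, rose in females at 9 weeks from 1.86 ± 0.96 to 8.88 ± 4.08 CPM, by 2.22 ± 0.44 on the log2 scale (adjusted p = 0.00321). The 7 immune cell markers summed to a median of 22.3 CPM in vehicle females and 71.3 CPM in females at 9 weeks. For the 7 connective tissue markers these medians were 29.3 and 191 CPM. The part of such cells in the Fxyd5 rise was not tested. Fxyd1 (phospholemman), best known from muscle, was lower in males at 15 weeks, at 0.333 ± 0.332 CPM against 4.97 ± 8.41 CPM in vehicle males, with a log2 difference of -3.88 ± 0.96 (adjusted p = 0.00965). Without vehicle male 1 the Fxyd1 difference was -1.86 with an adjusted p of 0.145, and with the smooth muscle score as a covariate -0.55 with an adjusted p of 0.612. The part of smooth muscle in it was not tested otherwise.

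Of the 10 genes for electroneutral salt and anion transport, Slc4a4, the basolateral sodium bicarbonate cotransporter, fell in males from 160 ± 86.1 CPM to 79.1 ± 13.4 CPM at 9 weeks (-1.02 ± 0.28, adjusted p = 0.0213) and 71.4 ± 26.7 CPM at 15 weeks (-1.17 ± 0.28, adjusted p = 0.00892). Without vehicle male 1 these were -0.64 (adjusted p = 0.133) and -0.79 (adjusted p = 0.0615). Of the 7 partners of the steroid receptors, the coactivator gene Ncoa1 fell in males at 15 weeks, from 66.1 ± 15.0 to 46.1 ± 12.5 CPM (-0.52 ± 0.17, adjusted p = 0.0435), and this call was lost in 9 of the other settings tried, among them the fit without vehicle male 1 (-0.40, adjusted p = 0.169), the smooth muscle score (-0.37, adjusted p = 0.358) and the compared libraries alone (-0.51, adjusted p = 0.165). Kcnk6 and Kcnk1 at 9 weeks kept their calls without that library. Kcnk6 at 15 weeks (0.54, adjusted p = 0.0949) and St14 at 9 weeks (0.39, adjusted p = 0.0793) did not, and Kcnk1 and St14 at 15 weeks did. The latter calls were lost with the smooth muscle score (adjusted p = 0.0742 and 0.0911) and with the compared libraries alone (0.0847 and 0.0922). Kcnk6 and Slc4a4 at 15 weeks were lost in these fits too. Over all genes in males at 15 weeks, the smooth muscle score left 361 calls and the compared libraries alone 181. The fit over all libraries without the score gave 1451. At 9 weeks Slc4a4 and St14 were lost with the smooth muscle score (adjusted p = 0.105 and 0.0567). No gene of the 51 was called between the sexes by edgeR in vehicle mice, at 9 weeks or at 15 weeks. There 13, 1 and 7 had an unadjusted p under 0.05 in edgeR, beside 18.7%, 3.87% and 12.4% of all tested genes. DESeq2 called 4, 0 and 1 of the 51, and 473, 11 and 205 of the 28034 genes it was given.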

How the data were processed

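RNA of 30 colon scrapes, 5 mice in each of 6 groups, had been sequenced from poly(A)-selected stranded libraries. The authors aligned reads with STAR to GRCm38/mm10 and deposited raw read counts per gene from featureCounts, without normalization. The FPKM and TPM values, as deposited, are StringTie estimates, scaled to length and library total; TPM was used only for levels between genes and FPKM only for the minimum of 1. Groups were taken from the labels. Gene lines that were repeated in a file, 11 to 20 per file, were added, and Slc26a6, on more than 1 row of the counts, was read from the first.

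Counts were tested with edgeR 4.0.16 in R 4.3.3 by the quasi-likelihood test, with trimmed mean (TMM) factors from 0.832 to 1.10, filterByExpr, and 1 coefficient per group over all 30 libraries, in 11 contrasts; DESeq2 1.42.0 was an alternative. Duplicates were kept, so limits of 3 counts cover counting error only. Hoxb13 relations used log2 CPM with a prior count of 2, and log2(TPM + 1) as an alternative. The text names the 8 members, Hoxb13, the other pathway genes called in a contrast with vehicle or between the sexes, at most 3 per list and contrast, and the 2 tested genes most like each member. The members and all gene lists were chosen with earlier results of these data known. Replicates are separate mice. Libraries with the same replicate number did not deviate together, and none of the 60 within-group pairs was a copy.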

Additional observations from a re-analysis of the deposited data

Results flagged for a closer look

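In 60 sets of 5 libraries (8 members, Hoxb13 and the log2 ratio of Scnn1a to Scnn1b, in 6 groups each), 8 held a library whose gap to the nearest other exceeded 0.71 of the range of the group. Chance gives about 1 in 20 groups. In log2 CPM, Fxyd4 of vehicle male 1 stood at 6.62 against a group median of 4.83. Nr3c2 was low in vehicle female 4 (7.01, median 7.42) and in male 5 at 15 weeks (6.46, median 7.27). Sgk1 was low in female 1 at 9 weeks (5.98, median 6.78). Male 5 at 9 weeks was high for Scnn1a (7.92, median 7.35) and for Atp12a (8.53, median 7.85). Scnn1b was low in male 4 at 9 weeks (2.28, median 3.06) and Scnn1g in female 5 at 9 weeks (-2.04, median 0.31). Female 5 at 9 weeks was also the group's lowest library for Hoxb13, at 8.12 CPM, and male 5 at 9 weeks the group's highest, at 276 CPM.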

How the results depend on the processing

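The counts of called members were tried under 8 other fits and without each mouse. With the replicate block, which joins libraries of the same replicate number, 1 member was called in males at 9 weeks in place of 4. Of all tested genes that fit called 951 in place of 1188. The replicate numbers did not pair the samples, since 12 of 75 same-number pairs correlated over 0.1 (range -0.58 to 0.47) and 4 of 30 libraries correlated best with their own number. With the smooth muscle score, 0 members were called in males at 9 and 0 at 15 weeks, and 1 between the sexes at 15 weeks. Of all tested genes that fit called 971, 361 and 38, beside 1188, 1451 and 30 without the score. With the compared libraries only, 1 was called in males at 15 weeks and 1 between the sexes at 15 weeks. Of all genes those fits called 181 and 35. DESeq2 called 1 in females at 15 weeks, 1 between the sexes in vehicle mice and 1 at 15 weeks, against 0 in each. Of all genes DESeq2 called 95, 473 and 205 in these contrasts, where edgeR called 16, 29 and 30. For the other pathway genes, the Hoxb13 covariate gave 8 calls in males at 9 weeks (5 without it) and 4 in females at 9 weeks (2 without it). Of all tested genes it gave 1461 and 891 calls, beside 1188 and 471 without it. The smooth muscle score gave 1 in females at 9 weeks and 1 in males at 15 weeks (6 without it), and the compared libraries only 1 and 0. Of all genes the smooth muscle score gave 288 and 361 calls and the compared libraries only 265 and 181. The fit over all libraries without the score gave 471 and 1451. Between the sexes, dropping the FPKM minimum gave 1 in vehicle mice, and DESeq2 gave 4 in vehicle mice and 1 at 15 weeks, against 0 in each. Without the FPKM minimum 41 of all tested genes were called in vehicle mice, beside 29 with it. The cause of these changes was not tested.

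Sex differences of members that changed sign were all uncalled. With the Hoxb13 covariate they were Hsd11b2 at 9 weeks (-0.08), Scnn1g at 9 and 15 weeks (-0.21 and -0.58), Fxyd4 in vehicle mice and at 15 weeks (-0.27 and -1.96) and Atp12a in vehicle mice and at 9 and 15 weeks (-0.24, -0.42 and -0.88). With the smooth muscle score they were Scnn1b (-0.063) and Fxyd4 (-0.033) in vehicle mice. The association with Hoxb13 moved by more than its jackknife error in log2(TPM + 1) for Nr3c2 (0.59), Sgk1 (0.31), Scnn1a (0.79), Scnn1b (0.30), Scnn1g (0.34) and Fxyd4 (0.75), and with the distal marker list for Scnn1b (0.024), Scnn1g (0.82) and Atp12a (0.71).

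Leaving out 1 mouse gave 0 to 4 called members in males and 0 to 1 in females at 9 weeks, 1 to 4 in males at 15 weeks, and 0 to 2 in vehicle mice and 0 to 1 at 15 weeks between the sexes. The count in males at 9 weeks was 0 without vehicle male 1 and without male 3 or 4 of that group, and at 15 weeks 1 without vehicle male 1 and 4 without vehicle male 2 or 4; the 1 in females at 9 weeks came without female 5, the 2 in vehicle mice without vehicle female 1, and the 1 between the sexes at 15 weeks without female 5. Pathway gene calls ranged from 2 to 6 in males and 1 to 3 in females at 9 weeks, 2 to 10 in males at 15 weeks and 0 to 7 between the sexes in vehicle mice; the fewest in males came without vehicle male 1, the 10 without vehicle male 4, and the 7 without vehicle female 1. Sex differences that changed sign ranged from -0.038 to 0.20 for Nr3c2 at 15 weeks, -0.10 to 0.16 for Hsd11b2 at 9 weeks and -0.87 to 0.21 for Fxyd4 at 9 weeks. The male minus female difference of the log2 ratio of Scnn1a to Scnn1b ranged from -0.24 to 0.49 in vehicle mice. It ranged from 0.38 to 0.89 at 9 weeks and from 1.88 to 2.30 at 15 weeks. The jackknife error of the Hoxb13 association was computed from its 240 fits without 1 mouse, so no such fit can exceed it. Over these fits r ranged from 0.905 to 0.965 for Atp12a, 0.855 to 0.922 for Fxyd4 and 0.663 to 0.735 for Scnn1g. For Hsd11b2 it ranged from 0.25 to 0.55 and for Nr3c2 from -0.033 to 0.223. Calls of Scnn1g and Fxyd4 rest on low counts in many libraries, which limits their precision.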
